A study of Homo sapiens with 11 samples.

Results

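The cytosolic ribosomal protein genes were followed in HCT-116 and RKO, a pair of established human colorectal cancer cell lines, with and without phenylacetaldehyde (PAA), an aromatic aldehyde. Members were the protein coding genes whose symbol is RPL or RPS followed by a number, with an optional final A, X or L, together with RPLP0, RPLP1, RPLP2 and RPSA. Pseudogenes, the RPS6K kinases, the Y-linked RPS4 genes and RPS19BP1 were left out. The rule found 81 members among 60612 genes, 49 of the large subunit and 32 of the small subunit. RNA sequencing covered 11 libraries in 4 groups: HCT-116 with DMSO vehicle (n = 3), HCT-116 with PAA (n = 3), RKO with DMSO (n = 2, labelled replicates 2 and 3) and RKO with PAA (n = 3). PAA was given for 24 h, and the vehicle was medium with 0.1% DMSO, for which no time is stated. Neither the PAA dose nor the way mRNA was selected is stated in the labels. The labels name no separate cultures, so the p-values measure the spread between these libraries, which may be technical.

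A cytosolic ribosome joins a small subunit, which reads the mRNA codon by codon, to a large subunit, which forms the peptide bonds and lets the growing chain leave through an exit tunnel. Each ribosome holds 1 copy of most of these proteins, and their genes are among the most strongly transcribed in dividing cells. Many of the mRNAs begin with a C followed by an unbroken stretch of C and U, the terminal oligopyrimidine (TOP) motif, through which mTOR and the binding protein LARP1 adjust their translation and stability.

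Values are FPKM, fragments scaled by transcript length and library depth. Estimated depth was 13640000 to 22780000 fragments per library. Differences are log2 fold changes of FPKM + 1 with standard errors, from limma's moderated test with Benjamini-Hochberg (BH) adjustment over the 13881 genes tested and a threshold of 0.05. Of the 81 members, 78 passed the filter on low values, which asked for 2 or more libraries at an FPKM of 1 or above, and the lowest value of any of these 78 in any library was an FPKM of 5.03. In bulk RNA, a change in the number of cells and a change in RNA per cell cannot be told apart. The gene values of the files divide by the merged exon length, so levels of single members are compared with each other below from isoform sums only. Sums over members and subunit shares use the gene values, and the shares are also given from isoform sums. Of the 10 colorectal epithelium markers checked, 6 passed the filter, and 5 of these 6 were lower in RKO than in HCT-116 with DMSO; EPCAM, for example, had a mean FPKM of 93.1 in HCT-116 and 5.34 in RKO. Of 12 markers of other cell types, COL1A1 and ACTA2 passed the filter, at mean FPKM of at most 2.39 in any group, and PTPRC and CD3E were listed at 0 in all libraries. COL1A1 was lower with PAA in RKO (mean FPKM 0.47 with DMSO and 0.0368 with PAA), and its part in the results was not tested.

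The start windows of 13 members carry the sequences that the later results refer to: members described for their PAA effect or their difference between the lines, the paralog pair RPS27 and RPS27L, and RPS26, which passed with PAA in neither line. Each line gives 25 bases before and 20 bases from the annotated transcription start in RefSeq (GRCh38.p14), 5′ to 3′ on the coding strand. Capitals mark a pyrimidine run at the start, that is a C at the annotated first base followed by at least 4 bases of C or T.
RPL3 (chr22:39319604-39319648, - strand): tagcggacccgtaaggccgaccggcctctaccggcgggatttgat
RPL10 (chrX:154398352-154398396, + strand): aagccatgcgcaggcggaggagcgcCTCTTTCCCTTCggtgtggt
RPL28 (chr19:55385907-55385951, + strand): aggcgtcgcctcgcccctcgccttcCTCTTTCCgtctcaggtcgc
RPL13A (chr19:49487583-49487627, + strand): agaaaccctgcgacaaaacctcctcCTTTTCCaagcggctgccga
RPL12 (chr9:127451387-127451431, - strand): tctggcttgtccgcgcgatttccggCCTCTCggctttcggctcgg
RPS16 (chr19:39435930-39435974, - strand): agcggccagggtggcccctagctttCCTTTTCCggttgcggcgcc
RPS6 (chr9:19380217-19380261, - strand): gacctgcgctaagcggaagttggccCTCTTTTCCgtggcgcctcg
RPL35 (chr9:124861938-124861982, - strand): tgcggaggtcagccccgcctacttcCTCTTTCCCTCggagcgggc
RPL7A (chr9:133348193-133348237, + strand): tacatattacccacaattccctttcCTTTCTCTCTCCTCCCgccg
RPL29 (chr3:51995876-51995920, - strand): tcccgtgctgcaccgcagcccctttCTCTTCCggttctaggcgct
RPS27 (chr1:153990737-153990781, + strand): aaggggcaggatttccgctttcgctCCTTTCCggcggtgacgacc
RPS27L (chr15:63157458-63157502, - strand): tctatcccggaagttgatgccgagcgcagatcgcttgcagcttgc
RPS26 (chr12:56041893-56041937, + strand): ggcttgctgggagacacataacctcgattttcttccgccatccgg

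The run was present in 10 of these 13 windows and was absent at the annotated starts of RPL3, RPS27L and RPS26; RPL10 had it in 1 of 3 annotated windows. Across the table, 64 members had a window and 46 of them (71.9%) had a run, against 5.14% of all 27305 symbols. By window, the run was found in 46 of 79 member windows (58.2%) and in 1429 of 35116 windows overall (4.07%). A match describes these letters, and no match says only that they are not at this annotated start.

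Summed over members, ribosomal protein FPKM was higher with PAA in both lines, and no library with PAA fell within the range of the DMSO libraries of its line. In HCT-116 the 3 DMSO libraries summed to 14114, 13933 and 13766 FPKM and the 3 PAA libraries to 17695, 17593 and 17034. In RKO the sums were 19898 and 19374 with DMSO and 23728, 22055 and 24021 with PAA. As a share of all FPKM, members held 4.32% ± 0.035 and 5.86% ± 0.11 in HCT-116, and 6.08% ± 0.34 and 8.78% ± 0.40 in RKO (DMSO and PAA, SD).

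The mitochondrially encoded genes moved beside this total. Their share of all FPKM was 39.3% ± 1.02 with DMSO and 31.3% ± 0.11 with PAA in HCT-116, and 34.4% ± 0.79 and 18.4% ± 0.17 in RKO. Of the FPKM of nuclear genes alone, members held 7.12% ± 0.10 and 8.53% ± 0.15 in HCT-116 and 9.26% ± 0.41 and 10.8% ± 0.51 in RKO, so the share was also higher with PAA when mitochondrial genes were left out of the total. No test was made on these sums, which pool members.

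The balance of the subunits differed between the lines more than between treatments. The small subunit held 44.9% ± 0.63 of member FPKM in HCT-116 with DMSO and 44.7% ± 0.13 with PAA, and 40.3% ± 0.30 and 39.4% ± 0.70 in RKO. The libraries with DMSO and PAA overlapped within each line, and every RKO library was below every HCT-116 library. From isoform sums the same shares were 41.6% ± 0.33, 41.2% ± 0.30, 37.7% ± 0.29 and 37.5% ± 0.11.

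**Figure D1:**
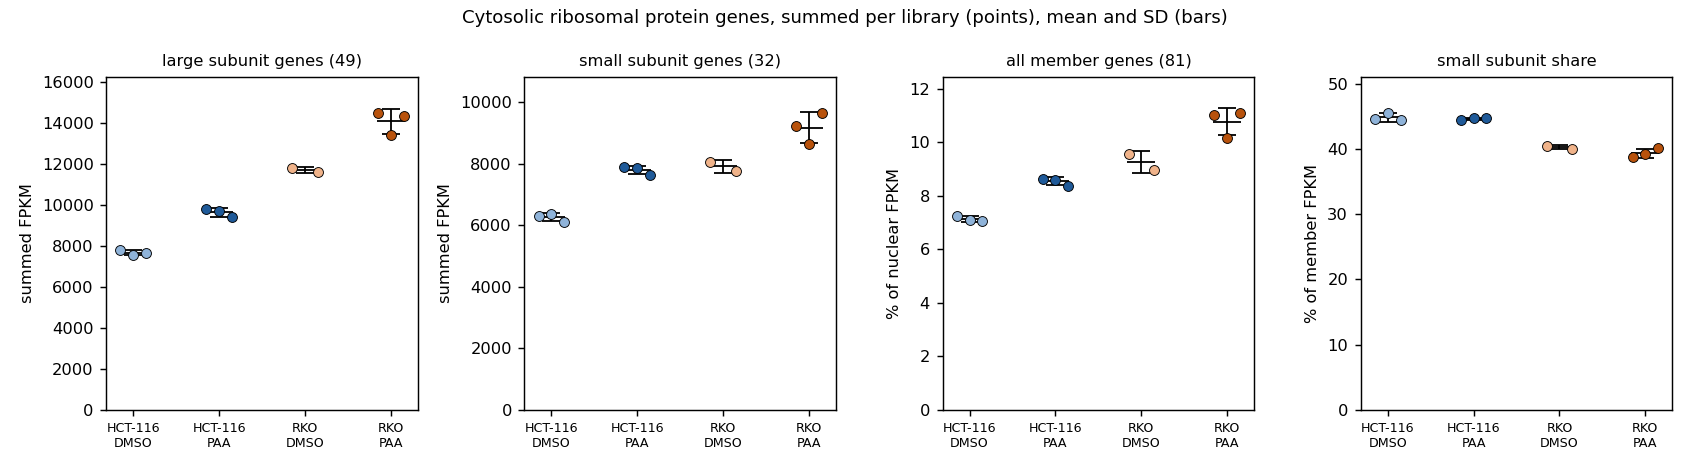
Summed FPKM of large and small subunit genes, their share of nuclear FPKM and the small subunit share of member FPKM (vertical axes), for the 4 groups (horizontal axis); points are libraries and bars the mean ± SD. The PAA libraries of HCT-116 sum to 17034 to 17695 FPKM over both subunits, above the 13766 to 14114 with DMSO, and the small subunit share is near 45% in HCT-116 and near 40% in RKO.

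In HCT-116, PAA raised most ribosomal protein mRNAs. Of 78 members tested, 55 rose, 1 fell and 22 did not pass the threshold; among all genes tested, 21.7% were higher and 25.3% lower. The median log2 fold change of the members was 0.30, a 1.23-fold change, beside -0.0067 over all genes. In the large subunit 32 of 46 genes were higher (median 0.32), and in the small subunit 23 of 32 (median 0.29). The effects of single members ran from -0.74 to 0.63, 9 reached a size of 0.5 and none reached 1. Every PAA library was above every DMSO library in 61 of the 78 members (78.2%), beside 26.5% of all genes tested.

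In RKO most members rose as well. PAA raised 45 of the 78 members and lowered none, where 25.7% of all genes were higher and 14.3% lower. With limma no member was lower at an unadjusted p under 0.05 either. The median was 0.20 (1.15-fold), beside 0.059 over all genes, with 26 of 46 large subunit genes higher (median 0.22) and 19 of 32 small subunit genes (median 0.20). The range was -0.30 to 0.62, and 3 members reached 0.5. All PAA libraries were above both DMSO libraries in 53 of the 78 members (67.9%), beside 38.3% of all genes tested. Without the DMSO replicate 3 of RKO, 32 members were higher.

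The size of the RKO result depended on how libraries were scaled. With each library brought to the same total FPKM, 70 members were higher and none lower in RKO, the member median was 0.49 and the median of all genes itself was 0.28. With median-of-ratios factors, 31 were higher and 1 (RPS15) lower, at a median of 0.10 against 0 over all genes. The distance of the member median above that of all genes was 0.10 to 0.25 over the main and 5 other scalings in RKO, and 0.23 to 0.35 in HCT-116.

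**Figure D2:**
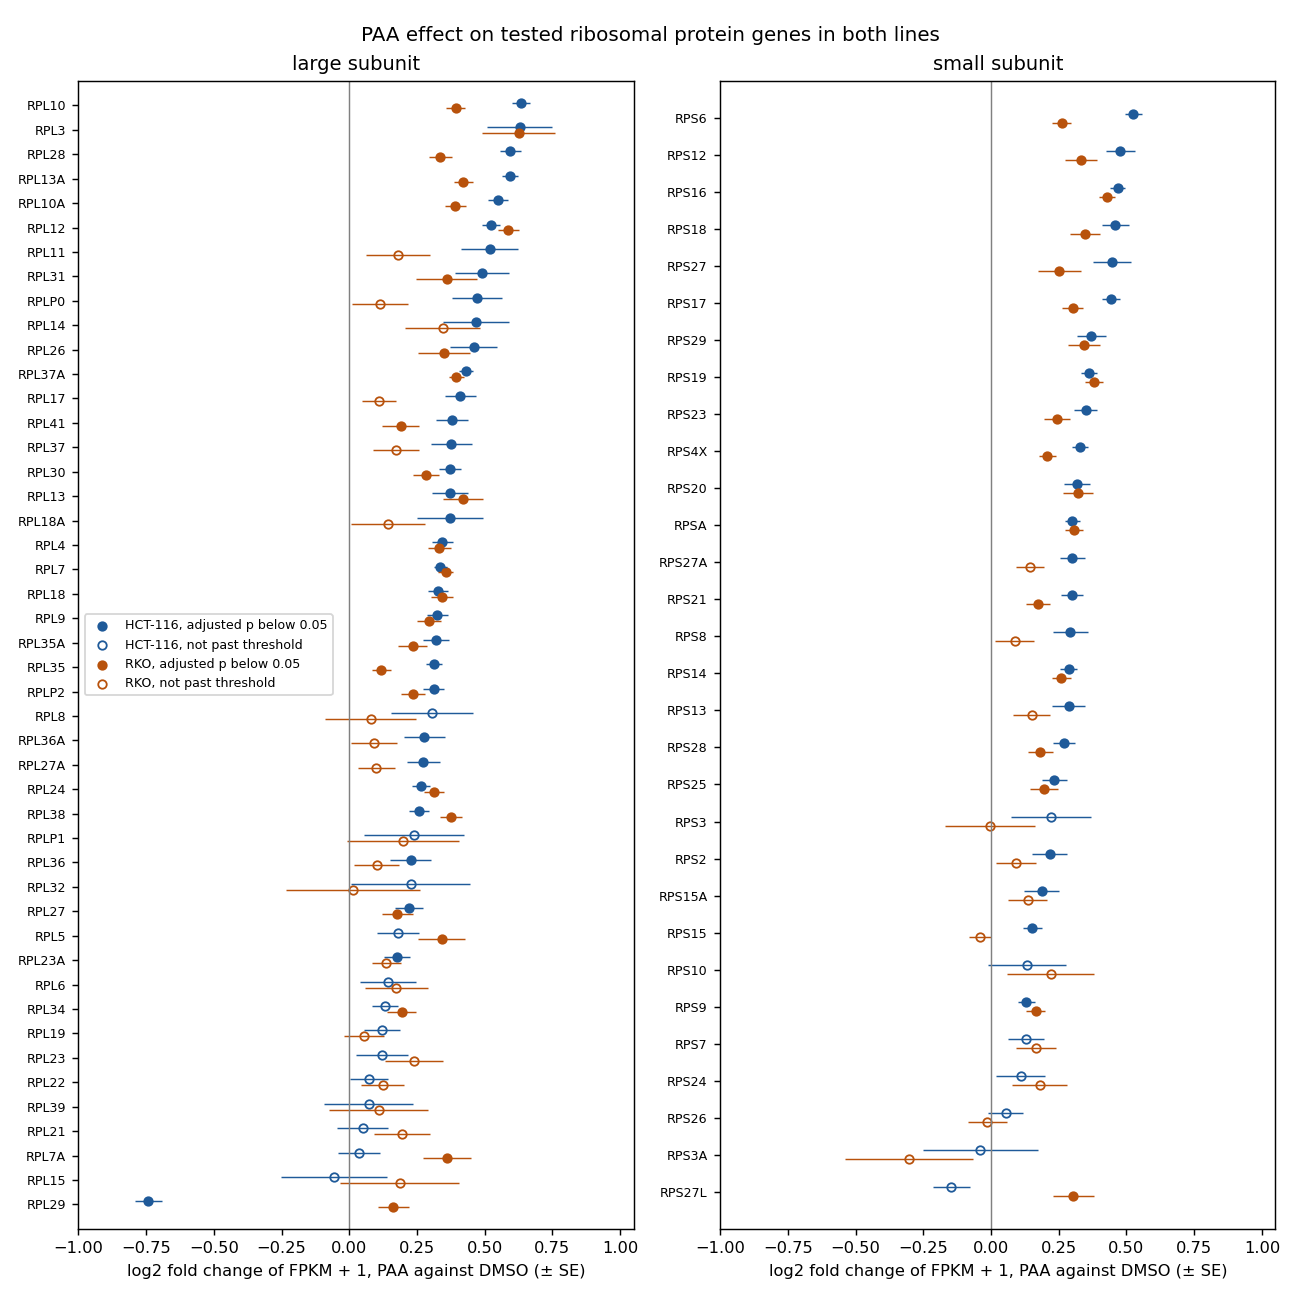
Log2 fold change of FPKM + 1 with PAA against DMSO (horizontal axis, ± SE) for 46 of 46 large and 30 of 32 small subunit genes tested (vertical axis, ordered by the HCT-116 effect) in HCT-116 (blue) and RKO (orange); filled points passed an adjusted p of 0.05. Most points of both lines lie right of 0, and RPL29 stands apart at -0.74 in HCT-116.

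Among large subunit proteins near the catalytic centre, RPL3 and RPL10 had the largest increases in HCT-116. RPL10 (chrX:154389955-154409168, + strand) joins the pre-ribosome late, in the cytoplasm, close to where tRNAs are held. Its FPKM in HCT-116 was 110.0, 112 and 109.9 with DMSO and 173, 171 and 173 with PAA, and in RKO 152 and 145 with DMSO and 197, 187 and 201 with PAA. The groups did not overlap in either line, and the increase was 0.63 ± 0.032, limma BH-adjusted p = 6.99e-07 in HCT-116 and 0.39 ± 0.036, limma BH-adjusted p = 4.65e-05 in RKO. RPL3 (chr22:39312882-39320389, - strand) reaches into the peptidyl transferase centre. It measured 271, 244 and 284 with DMSO and 428, 386 and 420.1 with PAA in HCT-116 and 437 and 354 with DMSO and 665, 506 and 666 with PAA in RKO. Here too all PAA libraries were higher, but replicates varied more, and the tests gave 0.63 ± 0.12, limma BH-adjusted p = 0.00223 and 0.62 ± 0.13, limma BH-adjusted p = 0.00539. Leaving out DMSO replicate 3 of RKO left an RPL3 effect of 0.47 that did not pass.

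RPL8, another protein of this centre, read 722, 551 and 727 with DMSO and 900.4, 891 and 681 with PAA in HCT-116 and 1229.9 and 1264 with DMSO and 1555, 1201 and 1223 with PAA in RKO. Treated and vehicle libraries overlapped in both lines, and neither effect passed (0.30 ± 0.15, limma BH-adjusted p = 0.129 in HCT-116; 0.079 ± 0.17, limma BH-adjusted p = 0.771 in RKO). Without PAA replicate 3 of HCT-116 the HCT-116 effect was 0.44 and passed (limma BH-adjusted p = 0.0408). RPL4, which extends into the exit tunnel, was 169.6, 173 and 167 with DMSO and 215, 218 and 215 with PAA in HCT-116 and 227 and 221 with DMSO and 296, 267 and 284 with PAA in RKO. It rose in both lines, by 0.34 ± 0.037, limma BH-adjusted p = 7.27e-05 and 0.33 ± 0.042, limma BH-adjusted p = 0.000271. From isoform sums the RPL4 effect in RKO was 0.46 and did not pass (limma BH-adjusted p = 0.105).

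RPL28 and RPL13A were the other members with the largest HCT-116 increases. RPL28, a protein found in the large subunit of eukaryotes, measured 53.2, 56.3 and 57.3 with DMSO and 86.3, 85.5 and 81.7 with PAA in HCT-116 and 73.8 and 72.2 with DMSO and 95.2, 91.4 and 90.7 with PAA in RKO. Each PAA library lay above the vehicle libraries of its line, at 0.60 ± 0.037, limma BH-adjusted p = 2.5e-06 and 0.34 ± 0.042, limma BH-adjusted p = 0.000261. RPL13A, which can leave the ribosome and silence inflammatory mRNAs, measured 523, 489.9 and 530.4 with DMSO and 770.2, 782 and 775 with PAA in HCT-116 and 871 and 874 with DMSO and 1164, 1181 and 1161 with PAA in RKO, again without overlap (0.59 ± 0.03, limma BH-adjusted p = 6.92e-07 and 0.42 ± 0.034, limma BH-adjusted p = 2.09e-05).

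The flexible stalks of the large subunit showed unequal evidence. RPL12, at the base of the stalk that recruits translation factors, was 304, 309 and 296 with DMSO and 437, 431 and 439 with PAA in HCT-116 and 386 and 382 with DMSO and 586, 549 and 599 with PAA in RKO. No groups overlapped, and the rises were 0.52 ± 0.034, limma BH-adjusted p = 3.11e-06 and 0.59 ± 0.038, limma BH-adjusted p = 6.15e-06. RPLP0, which anchors the stalk, rose in HCT-116 (242, 233 and 238 with DMSO and 334, 317 and 339.6 with PAA; 0.47 ± 0.093, limma BH-adjusted p = 0.00275) but overlapped in RKO (325 and 239 with DMSO and 291, 309 and 305 with PAA), where the effect was 0.11 ± 0.10, limma BH-adjusted p = 0.439. Without DMSO replicate 2 of RKO that effect was 0.34 and passed (limma BH-adjusted p = 0.00201). Of the acidic stalk proteins, RPLP2 rose in both lines (0.31 ± 0.039, limma BH-adjusted p = 0.000175 and 0.24 ± 0.043, limma BH-adjusted p = 0.00233). RPLP1 did not pass in either (0.24 ± 0.18, limma BH-adjusted p = 0.324 and 0.20 ± 0.21, limma BH-adjusted p = 0.502), and its RKO libraries with PAA were spread over 368, 219 and 236 FPKM. RPL10A, of the other stalk, where tRNAs leave, rose in both (0.55 ± 0.035, limma BH-adjusted p = 2.82e-06 and 0.39 ± 0.039, limma BH-adjusted p = 7.6e-05).

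RPL5 and RPL11 join the small 5S rRNA in a particle that, when free of ribosomes, binds the ubiquitin ligase MDM2, and RPL23 also binds MDM2. RPL11 was 113, 115.9 and 109 with DMSO and 171, 140.4 and 177 with PAA in HCT-116 and rose (0.52 ± 0.11, limma BH-adjusted p = 0.00316), while in RKO it read 193 and 152 with DMSO and 186, 188 and 207 with PAA and overlapped (0.18 ± 0.12, limma BH-adjusted p = 0.269). RPL5 gave the reverse pattern of calls, 0.18 ± 0.077, limma BH-adjusted p = 0.0847 in HCT-116 and 0.34 ± 0.086, limma BH-adjusted p = 0.012 in RKO, where the call was lost without DMSO replicate 2 (0.21). RPL23 passed in neither line (0.12 ± 0.10, limma BH-adjusted p = 0.343 and 0.24 ± 0.11, limma BH-adjusted p = 0.111); without DMSO replicate 2 of RKO its RKO effect was 0.37 and just passed, and it also passed, at 0.24, without DMSO replicate 1 of HCT-116. The RPL5 effect in HCT-116, unchanged in size at 0.18, passed when either RKO library with DMSO was left out. The tests of the difference between lines gave adjusted p-values from limma of 0.142 for RPL11, 0.344 for RPL5 and 0.593 for RPL23, so the calls of the 3 members were not shown to differ. For RPL11 the difference passed without PAA replicate 2 of HCT-116 (-0.44) or DMSO replicate 3 of RKO (-0.51).

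Around the exit tunnel, RPL35 rose in both lines, from a mean FPKM of 279.7 ± 3.70 to 347 ± 5.41 in HCT-116 and from 715 ± 7.96 to 776 ± 30.2 in RKO (SD); the RKO effect of 0.12 ± 0.034, limma BH-adjusted p = 0.0233 was 0.018 and did not pass with median-of-ratios factors, and did not pass without DMSO replicate 2 (0.11) or 3 (0.13) of RKO. RPL17, which lines the tunnel, rose in HCT-116 (73.6, 74.9 and 71.7 with DMSO and 108, 94.9 and 91.1 with PAA; 0.41 ± 0.058, limma BH-adjusted p = 0.000373) and did not pass in RKO (0.11 ± 0.065, limma BH-adjusted p = 0.217), where the PAA libraries were also all higher. RPL39, a short protein of the tunnel wall, did not pass in either line (0.072 ± 0.16, limma BH-adjusted p = 0.758 and 0.11 ± 0.18, limma BH-adjusted p = 0.699). RPL41, the smallest ribosomal protein, rose in both (0.38 ± 0.06, limma BH-adjusted p = 0.000725 and 0.19 ± 0.067, limma BH-adjusted p = 0.0496), but the RKO call was lost without any 1 of the RKO libraries (0.15 to 0.21) or 4 of the HCT-116 libraries. RPL38 rose in both, and its loss in mice disturbs Hox mRNA translation (0.26 ± 0.036, limma BH-adjusted p = 0.000383 and 0.38 ± 0.041, limma BH-adjusted p = 0.000115). RPL22, which is dispensable in most mouse tissues but needed in developing T cells, did not pass (0.073 ± 0.071, limma BH-adjusted p = 0.437 and 0.12 ± 0.079, limma BH-adjusted p = 0.259), though without PAA replicate 2 of RKO its RKO effect was 0.21 and passed (limma BH-adjusted p = 0.0219).

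RPL29 (chr3:51993522-51995942, - strand) was the 1 member that fell. The encoded protein is a basic large subunit protein also known for binding heparin. Its FPKM was 217, 207 and 212 with DMSO and 129.5, 128 and 121 with PAA in HCT-116, a fall with no overlap between the groups (-0.74 ± 0.05, limma BH-adjusted p = 3.65e-06). In RKO it was 167 and 160.2 with DMSO and 187, 169.9 and 194 with PAA, also without overlap but upward (0.16 ± 0.056, limma BH-adjusted p = 0.044). The RKO call was lost under 18 of 24 alternatives, among them leaving out either RKO library with DMSO (0.19 without replicate 2 and 0.13 without replicate 3). In HCT-116 the value stayed between -0.83 and -0.63 over the main and 24 alternative settings, with adjusted p-values from limma of at most 0.00125. The difference between the lines was 0.91 ± 0.075, limma BH-adjusted p = 4.13e-05.

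Rows for RPL29 pseudogenes can share reads with it, and the low rows given next did not fall with PAA in HCT-116. How shared reads were divided was not tested and cannot be read from these rows. RPL29P11 measured 7.99, 7.74 and 8.82 with DMSO and 9.67, 10.1 and 10.9 with PAA in HCT-116 (0.29 ± 0.11, limma BH-adjusted p = 0.0624), and RPL29P12 was 0.699, 0.382 and 0.164 with DMSO and 1.58, 0.866 and 0.564 with PAA. The start of RPL29 shown above carries a run of 7 pyrimidines, as do the starts of RPL13A and RPS27, which rose.

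**Figure D3:**
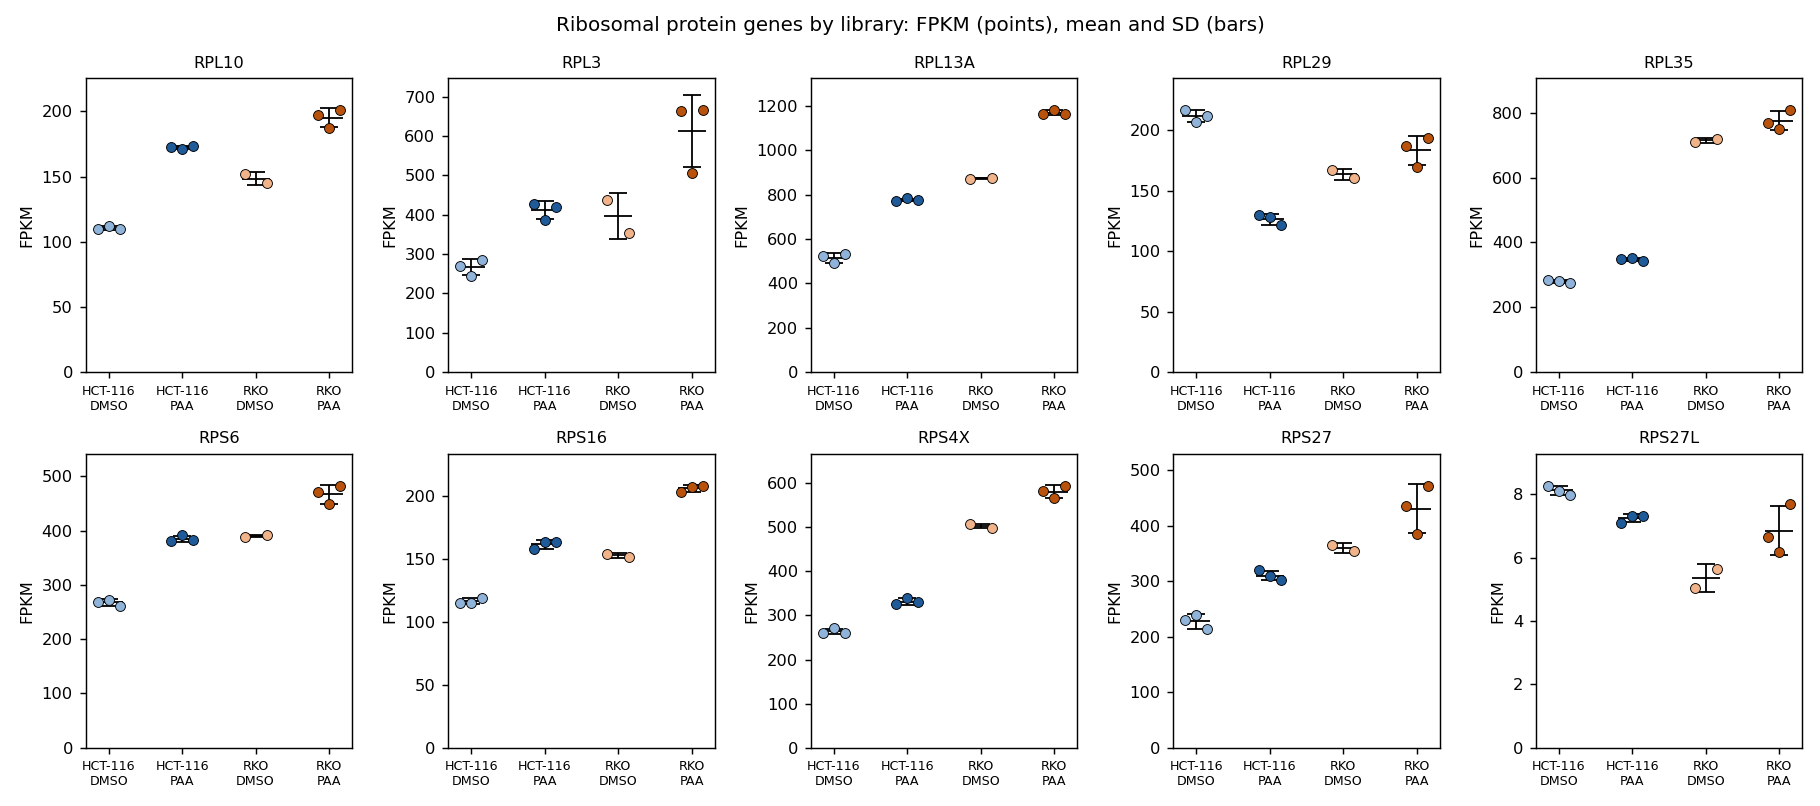
FPKM (vertical axes, each from 0) of 10 members in every library (points) with the mean ± SD (bars) for the 4 groups (horizontal axis). RPL29 is lower with PAA in HCT-116 (mean 212 with DMSO and 126 with PAA), RPL10, RPL13A, RPS6 and RPS16 are higher in both lines, and RPL35 and RPS4X differ most between the lines.

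Of the small subunit, RPS6 had the largest increase in HCT-116. RPS6 (chr9:19375715-19380254, - strand) is the protein that the S6 kinases phosphorylate downstream of mTOR. It measured 269, 273 and 261 with DMSO and 381, 392 and 384 with PAA in HCT-116 and 388 and 391 with DMSO and 471, 449 and 483 with PAA in RKO, with no overlap in either line. The rise was 0.52 ± 0.032, limma BH-adjusted p = 1.99e-06 in HCT-116 and 0.26 ± 0.036, limma BH-adjusted p = 0.000435 in RKO. RPS16, whose tail touches the tRNA in the peptidyl site, rose in both lines, from 117 ± 2.42 to 162 ± 3.26 in HCT-116 and from 153 ± 1.76 to 206 ± 2.75 in RKO (SD; 0.47 ± 0.027, limma BH-adjusted p = 1.45e-06 and 0.43 ± 0.03, limma BH-adjusted p = 9.76e-06).

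RPS12 rose in both lines, and RPS2 in HCT-116. Under quantile normalization the RPS12 effect in HCT-116 was 0.087 and did not pass (limma BH-adjusted p = 0.545). RPS12, which lies at the head of the subunit, was 808, 831 and 769 with DMSO and 1114, 1129.7 and 1107 with PAA in HCT-116 and 902 and 838 with DMSO and 1117, 1010.2 and 1163 with PAA in RKO (0.48 ± 0.054, limma BH-adjusted p = 9.27e-05 and 0.33 ± 0.06, limma BH-adjusted p = 0.00214). RPS2, near the mRNA entry, rose in HCT-116 (936, 891 and 864 with DMSO and 1119, 1004 and 1006 with PAA; 0.22 ± 0.065, limma BH-adjusted p = 0.023). That effect was -0.14 under quantile normalization, and it did not pass without DMSO replicate 2 (0.21) or 3 (0.19) or PAA replicate 1 (0.16) of HCT-116. In RKO the RPS2 libraries overlapped (0.092 ± 0.073, limma BH-adjusted p = 0.368). RPS3, which guards the mRNA entry and has a separate role in DNA repair, overlapped in both lines and passed in neither (0.22 ± 0.15, limma BH-adjusted p = 0.254 in HCT-116).

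Of 3 small subunit genes tied to inherited or acquired anaemia, RPS19 and RPS14 rose in both lines and RPS26 passed in neither. RPS19, the gene first linked to Diamond-Blackfan anaemia, rose from 161 ± 5.41 to 207 ± 1.75 in HCT-116 and from 195 ± 3.998 to 254 ± 3.42 in RKO (SD; 0.36 ± 0.029, limma BH-adjusted p = 1.19e-05 and 0.38 ± 0.033, limma BH-adjusted p = 3.19e-05). RPS14, lost in the myelodysplastic syndrome with a deletion on the long arm of chromosome 5, rose by 0.29 ± 0.031, limma BH-adjusted p = 7.77e-05 and 0.26 ± 0.035, limma BH-adjusted p = 0.000424. From isoform sums the RPS14 effects were 0.22 in HCT-116 and 0.19 in RKO, and neither passed. RPS26, at the mRNA exit, read 118, 119 and 112 with DMSO and 126, 124 and 113 with PAA in HCT-116 and 166 and 153 with DMSO and 164, 144 and 166 with PAA in RKO; groups overlapped in both and neither effect passed (0.055 ± 0.065, limma BH-adjusted p = 0.529 and -0.014 ± 0.072, limma BH-adjusted p = 0.924). Scaling to a common total gave RPS26 an RKO value of 0.27 that passed.

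RPSA, known also as the laminin receptor, rose in both lines (346, 333 and 358 with DMSO and 419, 429 and 429 with PAA in HCT-116; 345 and 343 with DMSO and 423, 428 and 426 with PAA in RKO; 0.30 ± 0.029, limma BH-adjusted p = 3.26e-05 and 0.31 ± 0.032, limma BH-adjusted p = 9.38e-05). RPS4X, the X-linked partner of the excluded Y-linked genes, rose by 0.33 ± 0.029, limma BH-adjusted p = 2.08e-05 and 0.21 ± 0.033, limma BH-adjusted p = 0.000946. RPS27A, made as a fusion with ubiquitin, rose in HCT-116 (0.30 ± 0.046, limma BH-adjusted p = 0.000624) and just missed the threshold in RKO (0.14 ± 0.051, limma BH-adjusted p = 0.0525); without DMSO replicate 2 of RKO it passed, at 0.21. RPS29, a short zinc-binding protein, rose from 16.05 ± 0.85 to 21.0 ± 0.514 in HCT-116 and from 21.0 ± 1.19 to 26.9 ± 1.43 in RKO (SD).

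Of the 4 paralogs with a final L, 1 had values high enough to test. RPL10L and RPL39L, which are known mainly from testis, were listed at 0 in all 11 libraries. RPL3L, a muscle paralog of RPL3, reached an FPKM of at most 0.0318 and was not tested. RPS27L was the 1 paralog of this kind that was tested, at 8.27, 8.11 and 7.97 with DMSO and 7.09, 7.31 and 7.31 with PAA in HCT-116 and 5.03 and 5.65 with DMSO and 6.66, 6.19 and 7.70 with PAA in RKO. Its PAA libraries were all below the DMSO libraries in HCT-116, a difference that did not pass (-0.15 ± 0.068, limma BH-adjusted p = 0.11), and all above in RKO (0.30 ± 0.076, limma BH-adjusted p = 0.0114). The HCT-116 difference, unchanged in size, passed without PAA replicate 3 of RKO. Without DMSO replicate 2 of RKO the RKO effect was 0.23 and did not pass. That effect also did not pass from isoform sums (0.26), under quantile normalization (0.19) or with RKO libraries only (0.30). RPS27 itself rose in both, at 230.3, 239 and 214 with DMSO and 319.9, 309 and 303 with PAA in HCT-116 and 366 and 354 with DMSO and 436, 385 and 473 with PAA in RKO (0.45 ± 0.071, limma BH-adjusted p = 0.00078 and 0.25 ± 0.08, limma BH-adjusted p = 0.032). The RKO call was lost without either DMSO library (0.28 without replicate 2 and 0.23 without replicate 3) or PAA replicate 1 (0.24) or 3 (0.18). In the start windows shown above, RPS27 has a run of 7 pyrimidines and RPS27L has none at its annotated start.

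There were 17 members that passed in neither line, among them RPL6, RPL8, RPL15, RPL19, RPL21, RPL22, RPL23, RPL32, RPL39, RPLP1, RPS3, RPS3A, RPS7, RPS10, RPS24 and RPS26. The effects of these 17 ran from -0.057 to 0.30 in HCT-116 and from -0.30 to 0.24 in RKO. Their libraries varied more. The SD as a percentage of the group mean, averaged over groups, had a median of 10.1%, beside 3.68% in the other tested members. Their median standard error was 0.11 in HCT-116 and 0.12 in RKO. With these errors, a change of the size seen in most members could have been missed in some of them. Ribosomal protein genes have many processed pseudogenes, and the labels do not state how reads shared between near-identical copies were counted. The values of all members are uncertain to that extent, and the part of such reads in these results was not tested.

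The lines were then compared. Of the members, 39 rose in both lines, which is 70.9% of the 55 that rose in HCT-116 and 86.7% of the 45 that rose in RKO; 16 rose in HCT-116 without passing in RKO, 5 rose in RKO without passing in HCT-116, and RPL29 fell in one and rose in the other. Of all genes tested, 12.4% rose in both lines, which is 57.0% of those that rose in HCT-116 and 48.2% of those that rose in RKO. The effects of the lines, which share no library, had a Pearson r of 0.47 across 78 members, and 0.55 across 77 without RPL29. The members share libraries and the scaling of each line, so r is given as a description. Within the large subunit r was 0.45 (46 members), and within the small subunit 0.54 (32 members).

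**Figure D4:**
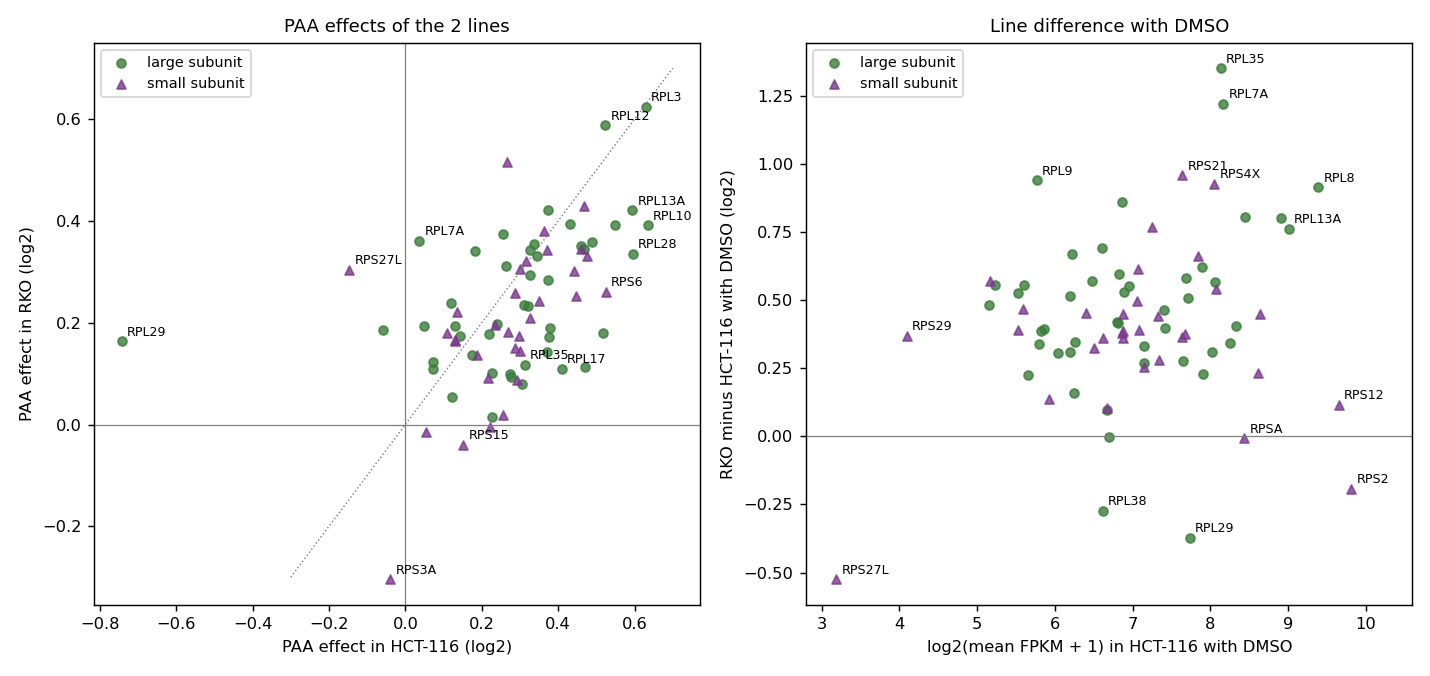
Left, the PAA effect in RKO (vertical axis, log2) against that in HCT-116 (horizontal axis, log2) for 78 members, with a dotted line where they are equal; right, RKO minus HCT-116 with DMSO (vertical axis, log2) against the level in HCT-116 (horizontal axis, log2 of mean FPKM + 1). Circles are large and triangles small subunit genes; RPL29 lies at -0.74 and 0.16 on the left, and RPL35 at 1.35 and RPL7A at 1.22 lead on the right.

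Tested directly, the PAA effect differed between the lines for 9 members, 2 with a higher effect in RKO and 7 with a lower one, that is 2.56% and 8.97% of the members, where 21.3% of all genes were higher and 9.68% lower. The median difference of the members was -0.072, beside 0.078 over all genes. RPL29 and RPS27L (0.45 ± 0.10, limma BH-adjusted p = 0.00948) made up the first group. RPL17 (-0.30 ± 0.087, limma BH-adjusted p = 0.0283), RPS6 (-0.26 ± 0.048, limma BH-adjusted p = 0.00314), RPL28 (-0.26 ± 0.056, limma BH-adjusted p = 0.00767) and RPL10 (-0.24 ± 0.049, limma BH-adjusted p = 0.00529) led the second, followed by RPL35 (-0.19), RPS15 (-0.19) and RPL13A (-0.17). RPS15, a protein of the decoding site, measured 35.2, 35.5 and 33.8 with DMSO and 39.6, 39.8 and 37.1 with PAA in HCT-116, where it rose (0.15 ± 0.035, limma BH-adjusted p = 0.00657), and 52.5 and 51.8 with DMSO and 51.4, 49.9 and 50.8 with PAA in RKO, where all PAA libraries were below the DMSO libraries and the test did not pass (-0.04 ± 0.04, limma BH-adjusted p = 0.475).

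The split of these calls moved with the scaling. It was 11 higher and 0 lower with a common total (limma, none lower at an unadjusted p under 0.05), 2 higher and 21 lower with median-of-ratios factors, and 5 higher and 4 lower under quantile normalization. The median difference, too, turned to 0.098 with a common total and to 0.0084 under quantile normalization. The differences for RPL29 and RPS27L kept their sign under each of these scalings, and that of RPL13A was 0.32 under quantile normalization. From isoform sums the RPS27L difference was 0.33 and did not pass. Leaving out single libraries ended 3 of the calls. That of RPL17 was lost without DMSO replicate 1 or 3 of HCT-116, DMSO replicate 2 of RKO or PAA replicate 2 or 3 of RKO (-0.26 to -0.30). That of RPS15 was lost without PAA replicate 1 or 2 of HCT-116, either DMSO library of RKO or PAA replicate 2 of RKO (-0.17 to -0.20). That of RPL13A was lost without either DMSO library of RKO (-0.17 in both).

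With DMSO alone, ribosomal protein mRNAs were higher in RKO than in HCT-116. Of 78 members, 60 were higher and 4 lower, against 33.4% and 30.7% of all genes, at a median of 0.41 (large subunit 0.47, small subunit 0.38) beside 0.032 over all genes. Of the large subunit, 37 of 46 were higher and 2 lower, and of the small subunit 23 of 32 were higher and 2 lower. The comparison is of 1 line with 1 other, so a property of either line or stock cannot be told apart from any feature the lines differ in.

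RPL35 and RPL7A had the widest gaps. RPL35 stood at 283, 281 and 276 in HCT-116 and 709 and 720.3 in RKO with DMSO, a difference of 1.35 ± 0.034, limma BH-adjusted p = 1.3e-09. RPL7A, a basic large subunit protein whose start window holds the longest pyrimidine run shown (16 bases), stood at 329, 268 and 259 and 669.5 and 656 (1.22 ± 0.087, limma BH-adjusted p = 1.61e-06). With PAA it did not pass in HCT-116 (0.037 ± 0.078, limma BH-adjusted p = 0.739), except without DMSO replicate 1 of HCT-116 (0.14, limma BH-adjusted p = 0.0196), and rose in RKO (0.36 ± 0.087, limma BH-adjusted p = 0.0097). Without DMSO replicate 3 of RKO the RKO effect was 0.35 and did not pass. The test of the difference gave 0.32 ± 0.12, limma BH-adjusted p = 0.0657, and passed without DMSO replicate 1 (0.22) or 3 (0.39) of HCT-116. RPS21 (0.96 ± 0.044, limma BH-adjusted p = 7.74e-08), RPL9 (0.94 ± 0.045, limma BH-adjusted p = 9.22e-08) and RPS4X (0.93) followed.

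The 4 members lower in RKO were RPS27L (-0.52 ± 0.076, limma BH-adjusted p = 0.000229), RPL29 (-0.37 ± 0.056, limma BH-adjusted p = 0.000276), RPL38 (-0.27 ± 0.041, limma BH-adjusted p = 0.000272) and RPS2 (-0.19 ± 0.073, limma BH-adjusted p = 0.0438). The RPS2 call was lost on leaving out DMSO replicate 1 or 2 of HCT-116, either DMSO library of RKO or one of 3 PAA libraries (-0.16 to -0.20). RPSA was nearly level, at 346, 333 and 358 in HCT-116 and 345 and 343 in RKO (-0.0062 ± 0.032, limma BH-adjusted p = 0.88). Isoform sums gave 2 lower members, and moved RPS27 from 0.66 to -0.083; the isoform rows of RPS27 that matched the annotation hold only a small part of its gene value, so its isoform sum is not informative.

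Levels between members can be compared per length from isoform sums, for the 70 tested members whose isoforms account for the gene value within 0.9 to 1.1. In HCT-116 with DMSO these sums were highest for RPS2 (2153 FPKM), RPL8 (1471), RPSA (1279.5) and RPS18 (1159). They were lowest for RPS27L (26.4), RPS15 (115.9), RPL37 (124) and RPS28 (134). Leaving aside the paralog RPS27L, proteins that are present once per ribosome had mRNA levels that differed many fold in these files. Reads shared with pseudogenes, such as RPS2P5 for RPS2, were not separated in these levels.

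Members with and without a pyrimidine run at the start were set side by side. Of 46 tested members with a run, 35 rose in HCT-116 and 30 in RKO, with medians of 0.31 and 0.23. Of 17 tested members with a window but no run, 10 rose in HCT-116 and 9 in RKO, with medians of 0.23 and 0.18. RPL3, among the strongest in both lines, has no run as defined here, and RPL29, which fell in HCT-116, has one. The annotated start of RPL3 reads CTCT followed by an A, so it narrowly misses the definition. No test was made of this contrast.

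At the level of transcripts, 795 isoforms of members were listed and 660 passed the filter. In HCT-116, 50 of them were higher and 2 lower, against 3.35% and 3.94% of all 46522 isoforms tested. In RKO 23 were higher and 6 lower, against 2.53% and 1.67%; without DMSO replicate 3 of RKO, 11 were higher. Estimates of single isoforms rest on few distinguishing reads where isoforms overlap.

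RPL13A-214, a transcript annotated for nonsense-mediated decay, rose in both lines. It measured 61.0, 55.8 and 46.6 with DMSO and 163, 164 and 158 with PAA in HCT-116, and 149 and 129.7 and 280.0, 287 and 316 in RKO. No PAA library fell within the DMSO range, at 1.56 ± 0.10, limma BH-adjusted p = 5.15e-05 and 1.08 ± 0.11, limma BH-adjusted p = 0.00137. Its part of the summed RPL13A isoforms went from 4.75% to 9.46% in HCT-116 and from 7.30% to 11.5% in RKO.

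The protein coding RPL10-210 measured 217, 272 and 213 with DMSO and 559, 581 and 552 with PAA in HCT-116, and 182 and 154 and 468, 396 and 447 in RKO (1.27 ± 0.11, limma BH-adjusted p = 0.00023 and 1.38 ± 0.12, limma BH-adjusted p = 0.000525). Its part of the RPL10 isoforms went from 47.3% to 59.7% and from 27.7% to 47.4%. RPL37A-212, also protein coding, rose by 1.09 ± 0.14, limma BH-adjusted p = 0.00216 in HCT-116 and 1.32 ± 0.16, limma BH-adjusted p = 0.00255 in RKO. RPL27A-212, annotated for nonsense-mediated decay, rose by 1.046 ± 0.24, limma BH-adjusted p = 0.0325 and 1.65 ± 0.26, limma BH-adjusted p = 0.0108, from a low level in HCT-116 (mean FPKM of 1.45 with DMSO).

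Several other HCT-116 increases were of transcripts with a retained intron or were uneven. RPS23-203 measured 28.1, 21.3 and 21.9 with DMSO and 111, 52.0 and 74.2 with PAA (1.63 ± 0.28, limma BH-adjusted p = 0.0102). RPL10-214 measured 11.7, 109 and 11.4 with DMSO and 208, 219 and 169 with PAA (2.94 ± 0.72, limma BH-adjusted p = 0.0452), so 1 DMSO library stood far from the other two. RPS9-205, a coding transcript, was also uneven, with 40.1, 46.9 and 11.7 over the PAA libraries (1.76 ± 0.44, limma BH-adjusted p = 0.0468).

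The fall of RPL29 in HCT-116 was that of its main transcript. RPL29-201, which held 96.4% of the isoform sum with DMSO and 90.9% with PAA, measured 566, 519.8 and 547 and 318, 315 and 295 (-0.81 ± 0.062, limma BH-adjusted p = 0.000132). In RKO the same transcript did not pass (0.16 ± 0.069, limma BH-adjusted p = 0.276). RPS14-201 was -0.053 in HCT-116 and fell in RKO, from 124 and 124 to 62.2, 60.2 and 46.2 (-1.14 ± 0.12, limma BH-adjusted p = 0.00124), while the gene value of RPS14 rose. RPS14-202 (-0.90 ± 0.12, limma BH-adjusted p = 0.00497), RPL27A-210 (-0.75 ± 0.17, limma BH-adjusted p = 0.0481) and RPS2-203 (-2.20 ± 0.37, limma BH-adjusted p = 0.0142) also fell in RKO.

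**Figure D5:**
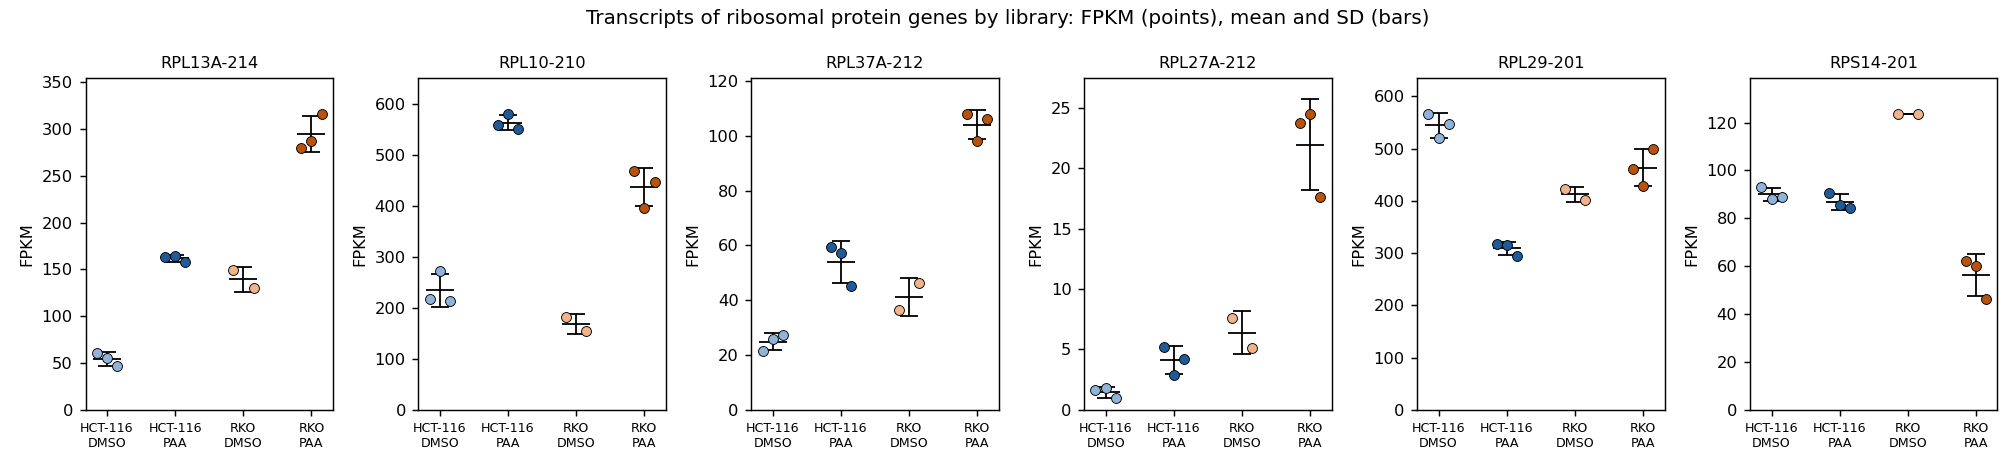
FPKM (vertical axes, each from 0) of 6 transcripts of members in every library (points) with the mean ± SD (bars) for the 4 groups (horizontal axis). RPL13A-214, RPL10-210, RPL37A-212 and RPL27A-212 are higher with PAA in both lines, RPL29-201 is lower with PAA in HCT-116, and RPS14-201 is lower with PAA in RKO.

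Of 6 ribosomal proteins outside the symbol rule, 3 rose and 1 fell in HCT-116, and 2 rose in RKO. Among all genes tested, 21.7% rose and 25.3% fell in HCT-116, and 25.7% rose in RKO. FAU, a fusion that yields RPS30, rose in both lines (0.33 ± 0.035, limma BH-adjusted p = 7.05e-05 and 0.19 ± 0.04, limma BH-adjusted p = 0.00411). RPL22L1, a paralog of RPL22, rose in HCT-116 (0.29 ± 0.06, limma BH-adjusted p = 0.00359). RPL36AL, a paralog of RPL36A, fell in HCT-116 (160.0, 168 and 159 with DMSO and 157, 149 and 141 with PAA; -0.13 ± 0.045, limma BH-adjusted p = 0.0422) and was -0.12 in RKO. RPL26L1 and RPL7L1 passed in neither line.

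Of 21 other mRNAs known for a TOP motif, mostly translation factors and FAU among them, 11 rose in HCT-116 and 13 in RKO, at medians of 0.23 and 0.37, where 21.7% and 25.7% of all genes rose. With limma none fell, also at an unadjusted p under 0.05. EEF1A1, which delivers tRNA to the ribosome, measured 1317, 1286 and 1349 with DMSO and 2085, 2154 and 2121 with PAA in HCT-116 and 2038 and 2053 with DMSO and 3523, 3195 and 3078 with PAA in RKO (0.69 ± 0.046, limma BH-adjusted p = 3.44e-06 and 0.67 ± 0.051, limma BH-adjusted p = 1.47e-05). EEF2, which moves the ribosome along the mRNA, rose by 0.50 ± 0.026, limma BH-adjusted p = 8.83e-07 and 0.85 ± 0.03, limma BH-adjusted p = 1.72e-07. TPT1 rose by 0.65 and 0.41, and NPM1, a nucleolar chaperone, passed in neither line (-0.038 and 0.072).

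Mitochondrial ribosomal proteins, which build a separate ribosome for the mitochondrial genome, changed in both directions. Of 78 tested, 10 were higher and 18 lower in HCT-116 (median -0.071) and 10 higher and 21 lower in RKO (median -0.096). Among all genes tested, 21.7% were higher and 25.3% lower in HCT-116, and 25.7% and 14.3% in RKO. The lower count in HCT-116 was thus near the share of all genes. Their summed FPKM was 1752 ± 41.3 with DMSO and 1687 ± 19.7 with PAA in HCT-116, and 2011 ± 39.2 and 1829 ± 45.8 in RKO. With DMSO, 27 were higher and 28 lower in RKO than in HCT-116 (median 0.017), where the cytosolic set had 60 and 4. All genes had 33.4% higher and 30.7% lower here, so the counts of the mitochondrial set were near those shares.

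Helpers of ribosomal proteins showed mixed directions. Of 11 chaperones and importers, 2 rose and 2 fell in HCT-116, and 3 rose and 4 fell in RKO. Among all genes tested, 21.7% rose and 25.3% fell in HCT-116, and 25.7% and 14.3% in RKO. No test was made of these short lists against those shares. TNPO1, an import receptor, rose in both (0.67 ± 0.04, limma BH-adjusted p = 1.9e-06 and 0.26 ± 0.045, limma BH-adjusted p = 0.00169), while GRWD1 and HEATR3, chaperones of RPL3 and of RPL5, fell in both (-0.30 and -0.25 for GRWD1, -0.58 and -0.22 for HEATR3). Of 6 factors of late large subunit maturation, 4 rose and 1 fell in HCT-116, and 2 rose and 1 fell in RKO. SBDS, which with EFL1 releases EIF6 from the new subunit, rose in HCT-116 (0.74 ± 0.076, limma BH-adjusted p = 5.11e-05) and did not pass in RKO (0.18 ± 0.085, limma BH-adjusted p = 0.13), and MRTO4 fell in both (-0.21 and -0.43).

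Of 10 kinases and binding proteins that act on ribosomal proteins or their mRNAs, 2 rose and 1 fell in each line. The shares of all genes were 21.7% higher and 25.3% lower in HCT-116, and 25.7% and 14.3% in RKO. MTOR, the kinase that controls TOP mRNAs, was -0.18 ± 0.032, limma BH-adjusted p = 0.00155 in HCT-116 and 0.12 ± 0.036, limma BH-adjusted p = 0.026 in RKO. LARP1 passed in neither line (-0.37 ± 0.19 in HCT-116 and 0.076 ± 0.22 in RKO). RPS6KB1 did not pass either (-0.18 ± 0.070 and -0.17 ± 0.078), nor did MYC (0.13 ± 0.97 and 0.043 ± 1.08). With PAA, MYC ranged over 3.69 to 23.2 FPKM in HCT-116 and 8.24 to 73.8 in RKO. For LARP1, PAA replicate 3 of HCT-116 stood apart at 17.3 FPKM. With these errors, a LARP1 or MYC change of the size seen in most members could have been missed. MDM2 rose in RKO (0.33 ± 0.11, limma BH-adjusted p = 0.0399).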

How the data were processed

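RNA sequencing of 11 libraries was analysed from the tables of FPKM values that the authors deposited per gene and per transcript. Per the submitters' processing notes, cutadapt 1.9, FastQC and GRCh38 were used. Which aligner, quantifier, annotation release or strand setting was used is not given in the sources used here. Values written as 0.0001 were set to 0. Symbols and gene types came from GENCODE 29, which matched 58394 of 60612 genes and 205306 of 229420 transcripts. Start sequences came from RefSeq (GRCh38.p14).

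Genes that reached an FPKM of 1 in 2 or more libraries were tested with limma 3.58.1 in R 4.3.3 on log2(FPKM + 1), a log2 scale computed here from the deposited values that understates changes of low genes. All 11 libraries entered 1 model with a mean per group and a mean-variance trend (residual df 7). P-values are two-sided, and Benjamini-Hochberg adjustment covered the 13881 genes or 46522 transcripts tested. The script was tested on simulated data. Between 15.9% and 20.6% of low values were whole multiples of 1 fragment within a tolerance of 0.02, so counts were not recovered and no count test was run; fragment numbers are estimates. Libraries of a group correlated at r of 0.976 to 0.985 and none were identical. Same-numbered libraries did not deviate together.

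Named members were the 4 called genes with the largest change in each direction of each comparison, members listed by role, paralogs with a final L, members under the filter, the 3 highest and lowest by mean level, and members whose effect differed between lines. The other members listed as passing in neither line, and RPS18, RPL37 and RPS28 as extremes of the isoform sums, were named after their values were seen. Some genes that the rule or the lists cover are not reported here by name, though they stay in all counts and medians; 2 of them are not drawn in the plot of effects by gene. Named transcripts were the 4 largest in each direction with a mean FPKM of at least 5. The members and lists were chosen with earlier results of these data known. Alternatives covered the filter, pseudocount, scaling, variance model, isoform sums, replicate block and each library left out.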

Additional observations from a re-analysis of the deposited data

Results flagged for a closer look

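The test of the difference between the lines, limma's contrast of the PAA effect in RKO minus that in HCT-116 with Benjamini-Hochberg adjustment over all genes, passed for 9 members, 2 higher and 7 lower. These are 2.56% and 8.97% of the 78 members tested, beside 21.3% higher and 9.68% lower among all genes, so the share of lower calls was near that of all genes and the share of higher calls below it. The 2 higher members were RPL29, at 0.91, and RPS27L, at 0.45; each had all PAA libraries below DMSO in HCT-116 and all above in RKO. The 7 lower members were RPL17 (-0.30), RPS6 (-0.26), RPL28 (-0.26), RPL10 (-0.24), RPL35 (-0.19), RPS15 (-0.19) and RPL13A (-0.17). Of these, RPS15 had PAA libraries above DMSO in HCT-116 and below DMSO in RKO, and the other 6 had PAA libraries above DMSO in both lines. RKO has 2 libraries with DMSO, and the calls for RPL17, RPS15 and RPL13A did not hold when single libraries were left out. From isoform sums the differences for RPS27L (0.33), RPL28 (-0.26) and RPL13A (-0.16) did not pass.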

How the results depend on the processing

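The direction of the member medians in each line held under all alternatives run. In HCT-116 scaling to a common total moved the median to 0.41, to a common nuclear total 0.24, to a nuclear total without members 0.26 and by quantiles 0.24; 2 members were lower with a common nuclear total and with libraries of 1 line only. In RKO, 70 members were higher at a median of 0.49 with a common total, the median was 0.10 with median-of-ratios factors, and 1 was lower with those factors. For the difference between lines, lower members numbered 4 without a filter, 0 with a common total, 4 with either nuclear total, 21 with median-of-ratios factors and 4 under quantile normalization; higher members numbered 11 with a common total, 5 under quantile normalization and 1 from isoform sums. Isoform sums gave 2 members lower in RKO with DMSO. The cause of these shifts was not tested.

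The member share of FPKM (HCT-116 DMSO and PAA, RKO DMSO and PAA) was 8.53%, 11.1%, 11.6% and 15.4% from isoform sums and 7.12%, 8.53%, 9.26% and 10.8% of nuclear FPKM; the small subunit share from isoform sums was 41.6%, 41.2%, 37.7% and 37.5%. With a filter of FPKM 5, 4 transcripts were lower in HCT-116 and 38 higher in RKO. Changes of sign were listed only for named values that passed in the main or the alternative setting. These were RPS2 in HCT-116 (-0.14, quantile), RPS15 (0.24) and RPS26 (0.27) in RKO with a common total, RPL13A (0.32) and RPS12 (0.53) in the difference under quantile normalization, and RPS27 between lines from isoform sums (-0.083).

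The replicate block gave 52 higher and 1 lower in HCT-116 and 33 higher and 1 lower in RKO, 1 lower in the difference, 14 higher and 1 lower transcripts in HCT-116, and 1 higher and 0 lower in RKO. Same-numbered libraries had correlated deviations of 0.067, -0.134 and -0.134 in HCT-116 and -0.142 and -0.076 in RKO, so the numbers were not taken to pair them.

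Leaving out each library in turn gave, in HCT-116, 50 to 57 higher, 1 to 2 lower and a median of 0.29 to 0.31; in RKO, 32 to 48 higher, 0 to 1 lower and a median of 0.19 to 0.25. The difference between lines had 2 to 3 higher and 5 to 9 lower, and the lines with DMSO 55 to 63 higher and 3 to 4 lower. Shares of FPKM ran over 4.31% to 4.34%, 5.82% to 5.92%, 5.84% to 6.32% and 8.65% to 9.01%, and small subunit shares over 44.5% to 45.1%, 44.6% to 44.7%, 40.1% to 40.5% and 39.0% to 39.7%. Transcripts numbered 35 to 50 higher and 1 to 5 lower in HCT-116, and 11 to 23 higher and 3 to 7 lower in RKO.

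The 2 RKO libraries with DMSO, unknown handling of reads shared with pseudogenes, and FPKM without counts limit these values. Of 3760 alternative values of 160 named values, 3530 kept their call, 157 lost the call and 67 gained it. Another 6 changed sign and passed in the main or the alternative setting. A value that passed in neither setting counted as kept, whatever its sign. Leaving out a library of either line cannot change the size of a PAA effect in the other line, so the size of those values was fixed in advance.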

Other observations

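Genes that sense or rescue stalled ribosomes were measured beside the ribosomal proteins. Of 9, 4 rose and 2 fell in HCT-116, and 2 rose and 3 fell in RKO. The shares of all genes were 21.7% higher and 25.3% lower in HCT-116, and 25.7% and 14.3% in RKO. EDF1, which is recruited to collided ribosomes, was 109.7, 108 and 100.6 with DMSO and 147, 150.4 and 146 with PAA in HCT-116 and 207 and 207 with DMSO and 259, 223 and 262 with PAA in RKO (0.48 ± 0.061, limma BH-adjusted p = 0.000203 and 0.25 ± 0.068, limma BH-adjusted p = 0.0157). PELO, which rescues stalled ribosomes, rose by 0.53 ± 0.045, limma BH-adjusted p = 1.68e-05 and 0.30 ± 0.051, limma BH-adjusted p = 0.00153. LTN1, a ubiquitin ligase for stalled chains, rose in HCT-116 (0.35 ± 0.051, limma BH-adjusted p = 0.000431), and GCN1, a sensor of collisions, fell in both lines (-0.28 ± 0.027, limma BH-adjusted p = 3.07e-05 and -0.10 ± 0.03, limma BH-adjusted p = 0.0253). ZNF598, the ligase that marks collided ribosomes, passed in neither line (0.51 ± 0.20, limma BH-adjusted p = 0.063 and 0.21 ± 0.22, limma BH-adjusted p = 0.518).

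Of 1132 rows for ribosomal protein pseudogenes, 139 passed the filter. Of these, 55 were higher and 4 lower in HCT-116 (median 0.30), against 21.7% and 25.3% of all genes, and 50 were higher in RKO (median 0.29), against 25.7%. In each line most of the 139 rows did not pass. Their summed FPKM was 3563 with DMSO and 4605 with PAA in HCT-116, and 4683 and 5956 in RKO. RPL13AP5 rose by 0.60 ± 0.045, limma BH-adjusted p = 7.33e-06 and 0.25 ± 0.05, limma BH-adjusted p = 0.00344, beside RPL13A at 0.59 and 0.42. Other copies differed from their parent gene. In RKO, RPLP0P6 rose (0.57 ± 0.069, limma BH-adjusted p = 0.000235) where RPLP0 did not pass. RPS2P5 also rose in RKO (0.37 ± 0.034, limma BH-adjusted p = 4.62e-05), where RPS2 did not pass. Reads shared between a member and its copies were not separated here.

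The 81 members lie on 21 chromosomes. Chromosome 19 holds 12, of which 5 belong to the large and 7 to the small subunit, and chromosome 17 holds 6, all of the large subunit.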
